A study of Rattus norvegicus with 8 samples.

Results

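The comparison described here sets rats in the first days after status epilepticus against control rats, where all of them had received a tone and a footshock that were not coupled. It holds 4 of the 8 arrays of the study: 2 arrays of epileptogenic rats after unpaired training and 2 arrays of control rats after unpaired training, chosen by those labels alone. Status epilepticus is a prolonged seizure that does not stop by itself, and the weeks that follow it, before spontaneous seizures appear, are called epileptogenesis. Gliosis, inflammation, loss of neurons and rewiring of synapses are known features of this time in the limbic system. The basolateral amygdala, formed by the lateral and the basal nucleus, is a seizure-prone part of that system and also the place where a tone becomes linked to a shock in fear conditioning. Most of its neurons are glutamatergic principal cells, which GABAergic interneurons hold in check.

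Control rats were operated and received no stimulation. Epileptogenic rats were stimulated in the amygdala, answered with a status epilepticus of at least 40 HAFDs (the abbreviation of the labels) in its first 3 h, and showed no spontaneous seizures as long as the study lasted. Both groups were habituated to the conditioning apparatus in 5 sessions of 10 min from day 5. On day 8 they spent 2 min in it before a footshock (1.5 mA, 1 s) and then a tone (75 dB, 20 s), and this was done 2 times. They were killed 3 h later. The ipsilateral temporal lobe was sectioned and the lateral and basal nuclei were cut out with a laser microdissection system. The RNA of each rat (30 ng) went through 2 rounds of linear amplification with 14 h of transcription in each, and amplified RNA of 2 rats was pooled for each array, so that the 4 arrays stand for 8 rats. The study also holds control and epileptogenic rats after paired training, in which the tone ended with the shock, with 2 arrays each.

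The groups differ in the stimulation and in the status epilepticus together, and these cannot be told apart. No group without tone and shock was analysed here, so differences that lasted since the seizure and differences in the response to the shock cannot be told apart. The labels call the arrays biological replicates, mark them A and B within each group, and do not say what the letters stand for; strain, sex and age are not given in the sources used here. The measurement is the MAS5 signal of an Affymetrix rat array, the brightness of a set of probes for a transcript, in arbitrary intensity units. Median signals were 43.2 and 33.8 on the control unpaired arrays A and B and 35.0 and 32.2 on the epileptogenic unpaired arrays. On the log2 scale, arrays of the same group correlated at 0.879 (control) and 0.892 (epileptogenic), and arrays of the same letter at 0.865 (A) and 0.904 (B), so that arrays of different groups with the same letter were about as alike as arrays of 1 group. Values below are log2 differences, epileptogenic minus control after unpaired training, each with its standard error (SE) from a limma fit to all 8 arrays that has the 4 groups and the letter as terms. The threshold is a Benjamini-Hochberg adjusted p of 0.05 over 18625 probe sets. Levels of different genes are not set against each other, since each probe set has its own brightness.

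After unpaired training, many genes of microglia, of the interferon response, of complement, of lysosomes and of reactive astrocytes rose in epileptogenic rats, some of them to 4 times the control signal or more. Some genes of principal neurons, of glutamate and GABA receptors, of ion channels and of synapses fell, mostly to a smaller extent, and most members of those lists did not pass. Of the 18625 probe sets tested, 633 rose (3.4%) and 673 fell (3.61%), 7.01% in all. Among 10364 named genes, each read by its brightest probe set, 466 rose (4.5%) and 324 fell (3.13%). A fold of at least 2 was reached by 366 of the genes that rose and by 153 of those that fell, and a fold of at least 4 by 96 and 9. The median of the called increases was 1.42 on the log2 scale and that of the called decreases was -1.02. All 1306 called probe sets had the same direction in the A arrays as in the B arrays, and in 1246 of them the 2 epileptogenic arrays did not overlap the 2 control arrays. A call in a fit with the letter favours probe sets whose A and B differences agree, so this agreement is no separate evidence. Over all tested probe sets, arrays without overlap were found for 3006 that were higher (16.1%) and 4706 that were lower (25.3%).

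The counts rest on the intensity trend, on the letter and on scaling. The trend lets the prior variance of the fit follow the mean signal; without it 0 probe sets passed in either direction (limma, smallest adjusted p = 0.0652, with 3916 at an unadjusted p under 0.05), so every call given below ends with that choice. Without the letter in the fit, 54 probe sets rose and 5 fell, so that 91.5% of the calls were increases, against 48.5% with it. The median difference over all tested probe sets was -0.14, and it was 0.05 after each array was centred on its median. This centring left 907 higher and 225 lower calls (80.1% higher), and quantile normalization left 753 and 401 (65.3% higher). All 466 named genes that rose kept the call after centring, whereas 107 of the 324 that fell kept it. Leaving out control unpaired A left 200 higher and 30 lower calls, and leaving out control unpaired B left 175 and 28. Leaving out epileptogenic unpaired A left 359 and 336, and leaving out epileptogenic unpaired B left 218 and 208. A total of 72 named genes passed with any single array of the study left out, 67 of them higher and 5 lower.

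**Figure D1:**
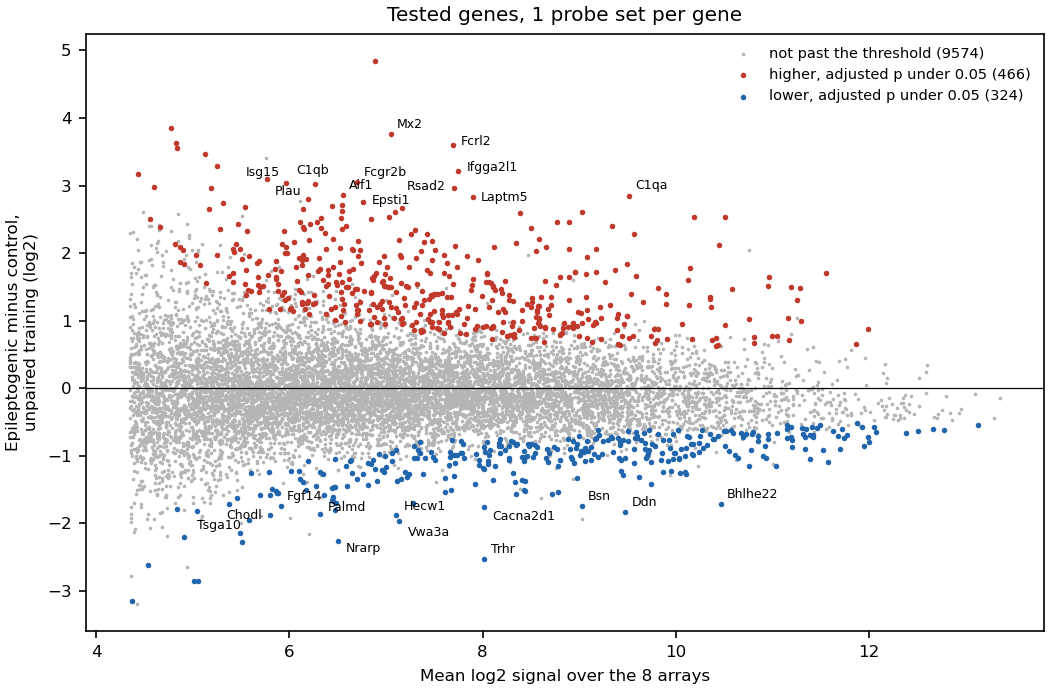
Each point is a tested gene, with its mean log2 signal over the 8 arrays on the x axis and the log2 difference, epileptogenic minus control after unpaired training, on the y axis. The 466 genes that rose (red) reach farther from 0 than the 324 that fell (blue), and the labelled genes are the largest changes whose lower group lay above the filter level.

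The largest increases were mostly those of genes that phagocytes and interferon-treated cells are known to express. Mx2, a GTPase gene of the interferon response, had signals of 34.5 and 34.3 on the control and 237 and 914 on the epileptogenic arrays. Its log2 difference was 3.76 ± 0.59 (limma adjusted p = 0.00759). The 2 control arrays were alike, and the epileptogenic arrays differed from each other but lay far above both. Fcrl2, which encodes an Fc receptor-like protein, went from 60.6 and 51.6 to 519.5 and 884, a difference of 3.60 ± 0.35. Ifgga2l1, an interferon-gamma-inducible GTPase gene, went from 81.1 and 72.2 to 598 and 847, a difference of 3.22 ± 0.23 (limma adjusted p = 0.000494). In both genes the epileptogenic arrays were far apart from the control arrays, and both kept the call with any single array left out.

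Fcgr2b, a receptor for antibody complexes on phagocytes, had signals of 54.7 and 35.5 on the control and 346 and 386 on the epileptogenic arrays, a log2 difference of 3.05 ± 0.44. Laptm5, a lysosomal membrane protein of blood-derived cells, had 98.9 and 90.6 and 679.7 and 666, a difference of 2.83 ± 0.21 (limma adjusted p = 0.000494). Within each group its 2 arrays nearly coincided. Epsti1, which is induced by interferon in many cells, rose by 2.76 ± 0.31, from 42.0 and 35.0 to 214 and 315. Plau, which encodes the protease urokinase, rose by 2.80 ± 0.64 (limma adjusted p = 0.0315), from 42.8 and 27.4 to 220.0 and 259. Its change was 1.80 and not called without control unpaired B, so the size rests in part on that array. The Plau call was also lost without epileptogenic unpaired A (2.38) or B (3.22). Slfn4, Cd300a, Tagap and Olr1 had larger differences, 4.85 ± 0.56, 3.85 ± 0.63, 3.63 ± 0.79 and 3.55 ± 0.78, but their control means lay at or under the filter level, a signal of 20.3, and these sizes rest on dim control values. Of these 4, Slfn4, a gene of myeloid cells, passed with any single array left out; its signals were 26.0 and 15.6 on the control and 296 and 1128 on the epileptogenic arrays. In all, 25 of the 466 genes that rose and 10 of the 324 that fell had such a dim lower group.

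**Figure D2:**
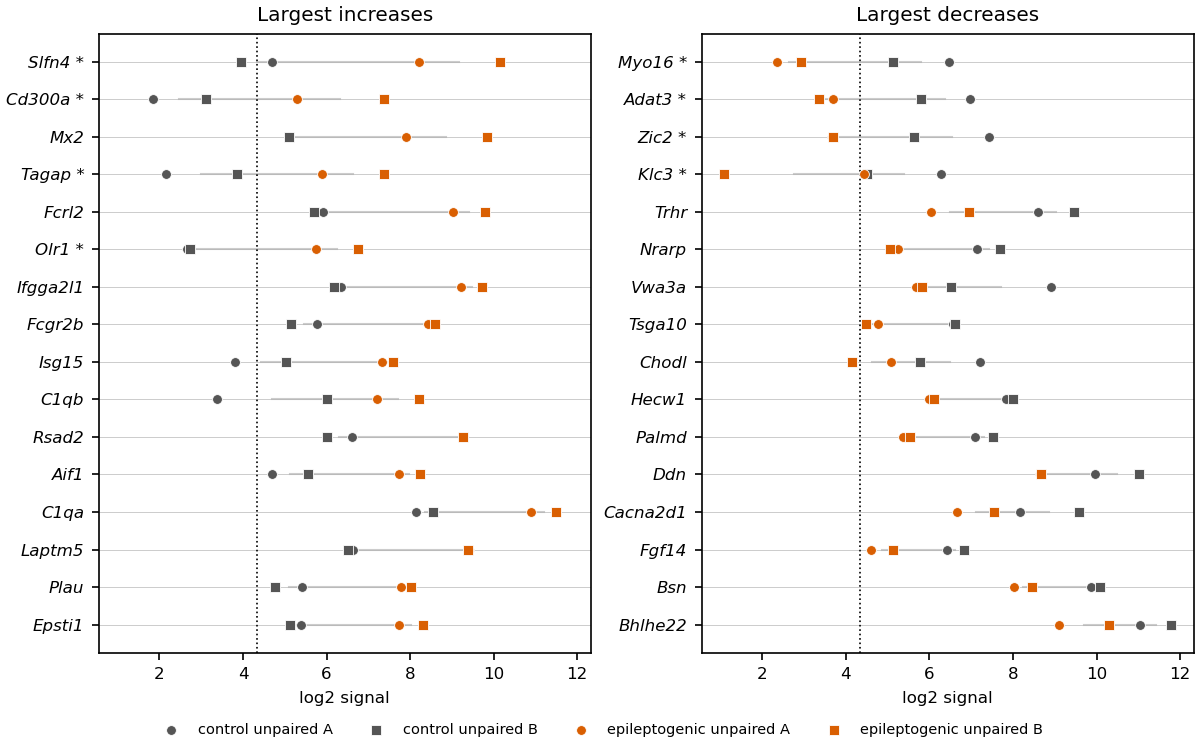
Log2 signal (x axis) on each of the 4 arrays of 16 genes that rose (left) and 16 that fell (right): in each direction the 12 largest changes with the lower group above the filter level and the 4 largest with a dim lower group, grey for control and orange for epileptogenic, circles for letter A and squares for letter B, with a line between the group means. The dotted line is the filter level (log2 4.35), an asterisk marks a gene whose lower group mean lies at or under it. All 32 genes were chosen among those whose arrays do not overlap between groups, and what varies is the distance between arrays of 1 group, wide in Mx2 and narrow in Laptm5.

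Many genes of the interferon response rose, several of them from dim control signals. Type I interferon acts through transcription factors, STAT2 and IRF9 among them, that bind a short element, the interferon-stimulated response element, in front of antiviral genes. Of 37 tested genes of the list, 24 rose (64.9%, against 4.5% of all named genes) and 0 fell. Of the 24, 5 had a control mean at or under the filter level. They were tested only because signals on other arrays lifted their mean over the 8 arrays. The median difference was 1.73, against -0.07 over all named genes. It was 1.58 between the A arrays and 1.92 between the B arrays. Rsad2, which encodes the antiviral protein viperin, had signals of 97.1 and 64.2 on the control and 618 and 612 on the epileptogenic arrays, a difference of 2.96 ± 0.30 (limma adjusted p = 0.00150). Isg15, a ubiquitin-like protein that is attached to other proteins, had 14.1 and 32.8 and 162 and 194, a difference of 3.04 ± 0.50. It was 2.30 and not called without control unpaired A, whose signal was the lowest. The Isg15 call was also lost without epileptogenic unpaired B (2.95). Oas1a, a sensor of double-stranded RNA, rose by 3.16 ± 0.57 from dim control signals of 4.66 and 7.62 to 55.1 and 51.8. Gbp2, a guanylate-binding GTPase gene, rose by 2.36 ± 0.43, from 31.9 and 29.4 to 162 and 153. Of the transcription factor genes of the pathway, Stat2 (1.87), Irf9 (1.50) and Irf7 (1.43) rose, while Irf1 had a difference of 0.01 and did not pass. The immunoproteasome subunit genes Psmb8 (2.04), Psmb9 (1.93) and Psmb10 (1.79) rose as well. Cmpk2 (0.19), Bst2 (0.27), Ifit3 (0.42) and Oasl (-0.73) are members that did not pass. Without the letter in the fit 5 members rose. With control unpaired A, control unpaired B, epileptogenic unpaired A and epileptogenic unpaired B left out in turn, 14, 9, 18 and 12 rose.

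The promoters of the tested members of this list, called or not, were searched for the core of that element. The element is known for antiviral genes, so a high share in this list was to be expected beforehand. The window is RefSeq's, on the GRCr8 assembly, from 250 bases before to 50 bases after the annotated start of the gene, and the motif was GAAANNGAAA on either strand, with overlapping matches counted. It was found in 20 of the 31 list members with a promoter in the table (64.5%), in 12 of the 19 among the 24 that rose (63.2%), in 1034 of all 27457 promoters (3.77%) and in 252 of the 8628 promoters of tested genes (2.92%). The share in the members that rose was thus near that of the whole list. The motif was found in 40 of the 371 promoters of all genes that rose (10.8%), in 4 of the 249 of those that fell (1.61%) and in 2 of 11 of the microglial genes that rose (18.2%). The 40 include the 12 of the interferon list. A match is a description of the letters and not a binding site. Among the members that rose, the letters are not in this window of Slfn4, Mx1, Irf9, Stat2, Psmb9, Parp9 and Trim25. Mx2 and Isg15 were not among the promoters searched. Shown are the 4 members with the largest increases whose promoter holds the motif, each in the direction of the gene, with the bases of the matches in capitals. The promoter of Oas1a lies at chr12:41330216-41330515 (plus strand), that of Ddx60 at chr16:33208790-33209089 (minus strand), that of Rsad2 at chr6:48788071-48788370 (minus strand) and that of Nmi at chr3:56848494-56848793 (minus strand).
Oas1a: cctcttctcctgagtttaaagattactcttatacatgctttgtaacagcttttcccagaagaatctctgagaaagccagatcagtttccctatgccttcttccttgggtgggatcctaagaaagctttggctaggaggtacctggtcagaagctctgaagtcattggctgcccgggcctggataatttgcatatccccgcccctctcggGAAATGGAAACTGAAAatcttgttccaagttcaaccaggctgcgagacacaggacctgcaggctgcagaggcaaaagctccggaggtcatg
Ddx60: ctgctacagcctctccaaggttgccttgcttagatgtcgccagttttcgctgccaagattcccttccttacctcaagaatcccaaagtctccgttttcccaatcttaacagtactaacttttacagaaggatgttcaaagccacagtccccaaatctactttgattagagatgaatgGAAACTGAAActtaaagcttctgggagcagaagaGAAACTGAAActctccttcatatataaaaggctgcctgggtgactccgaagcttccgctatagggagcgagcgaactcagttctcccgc
Rsad2: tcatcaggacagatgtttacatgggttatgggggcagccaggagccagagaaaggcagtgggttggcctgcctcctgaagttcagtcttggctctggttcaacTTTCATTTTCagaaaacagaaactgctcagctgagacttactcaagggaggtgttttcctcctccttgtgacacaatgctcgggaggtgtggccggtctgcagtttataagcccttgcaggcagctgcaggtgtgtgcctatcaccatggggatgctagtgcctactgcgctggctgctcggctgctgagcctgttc
Nmi: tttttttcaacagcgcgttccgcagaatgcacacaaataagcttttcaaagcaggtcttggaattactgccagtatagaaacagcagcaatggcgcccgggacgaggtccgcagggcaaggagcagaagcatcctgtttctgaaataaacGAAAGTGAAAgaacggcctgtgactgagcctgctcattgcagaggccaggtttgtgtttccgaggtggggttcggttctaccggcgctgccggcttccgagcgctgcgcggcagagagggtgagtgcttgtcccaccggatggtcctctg

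The Oas1a promoter holds 2 matches that overlap, beginning 41 and 35 bases before the start site and written as 1 run of capitals. Ddx60, an antiviral helicase gene, holds 2 separate matches, beginning 73 and 39 bases before the start, and rose by 2.97 ± 0.71 from dim control signals of 12.6 and 11.9 to 56.7 and 163. In Rsad2 the match lies on the other strand, at 147 bases before the start. Nmi, an interferon-inducible gene, holds 1 match at 100 bases before the start. Its signals were 5.49 and 57.1 on the control and 83.2 and 156 on the epileptogenic arrays, a difference of 2.68 ± 0.56 that rests in part on the dim control unpaired A.

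Many genes of microglia and macrophages, the resident and invading phagocytes of the brain, rose. In RNA from tissue, more cells of a type and more RNA per cell cannot be told apart, and the same holds for a decrease. Of 28 tested members 19 rose (67.9%) and 0 fell, with a median difference of 1.47 (1.45 between the A arrays and 1.68 between the B arrays). Aif1, the calcium-binding protein Iba1 of microglia, had signals of 25.7 and 46.9 on the control and 212 and 299.7 on the epileptogenic arrays, a difference of 2.86 ± 0.34 (limma adjusted p = 0.00269). The second Aif1 probe set on the array went the other way. Ptprc, the leukocyte common antigen CD45, had 107 and 179 and 594 and 1169.9, a difference of 2.59 ± 0.31. In both genes the epileptogenic arrays lay well above the control arrays. Genes known for resident microglia were among those that rose, P2ry12 by 1.52, Tmem119 by 1.17, Csf1r by 1.41 and Gpr34 by 1.39. Cx3cr1, the receptor for the neuronal chemokine fractalkine, had a difference of -0.12 and did not pass. The macrophage genes Adgre1 (2.18) and Mrc1 (1.13) rose, and Cd68 (2.77) did not pass. Its signals were 51.5 and 44.9 on the control and 272 and 398 on the epileptogenic arrays (limma adjusted p = 0.0680). Without the letter 3 members rose, and with the 4 arrays left out in the order used above 11, 7, 13 and 12 rose.

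Most complement genes, whose products tag cells, debris and synapses for phagocytes, also rose. Of 12 members 8 rose (66.7%) and 0 fell, at a median of 1.78. The 3 chains of C1q, which starts the classical pathway and comes mainly from microglia in the brain, all rose. C1qa had signals of 282 and 376 on the control and 1918 and 2883 on the epileptogenic arrays, a difference of 2.85 ± 0.22 (limma adjusted p = 0.000494). C1qc had 54.0 and 37.5 and 214 and 312, a difference of 2.52 ± 0.32. C1qb had 10.3 and 64.6 and 148 and 296. Its difference of 3.02 ± 0.59 was 1.83 and not called without control unpaired A, the array with the lowest signal. The C1qb call was also lost without epileptogenic unpaired A (3.12) or B (2.93). Of the proteases that follow, C1s rose by 1.95 and C1r by 1.54, and C3, the central component, rose by 1.52. Serping1, the inhibitor of C1r and C1s, rose by 2.34 ± 0.61 (limma adjusted p = 0.0487), close to the threshold, from 124 and 78.5 to 532 and 469.5. Without control unpaired B its difference was 1.60. The regulators Cd55 (-0.57), Cd46 (0.09) and Cd59b (0.17), which protect cells from complement, did not pass. Without the letter 2 members rose, and in the leave-out order 3, 3, 3 and 3 rose.

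Genes of antigen presentation rose in part. Of 18 members 7 rose (38.9%) and 0 fell, at a median of 1.34. B2m, the light chain of class I molecules, had signals of 1049.7 and 864 on the control and 2786 and 2507 on the epileptogenic arrays, a difference of 1.47 ± 0.16 (limma adjusted p = 0.00224). RT1-S3, a rat class I gene, rose by 1.90 ± 0.23, and Ifi30, a lysosomal reductase that prepares antigens, by 1.75 ± 0.21. Class I and class II genes of the rat are near copies of each other, and their probe sets may take up signal of more than 1 of them. Cd74, the invariant chain of class II molecules, had 86.4 and 60.9 on the control and 367 and 59.6 on the epileptogenic arrays, so that the groups overlapped and only epileptogenic A stood out. Its difference of 1.03 ± 0.73 did not pass (limma adjusted p = 0.432). Of 15 cytokine and chemokine genes 3 rose (20%, against 4.5% of all named genes) and 1 fell (6.67%, against 3.13%). Cxcl16 rose by 1.51 ± 0.33, Il18 by 1.29 ± 0.32 and Il33, an alarm signal of glia, by 1.10 ± 0.22. Cx3cl1, which encodes fractalkine, had 317 and 257 and 207 and 83.9 and fell, with -1.11 ± 0.26. It was -0.69 and not called without epileptogenic unpaired B, the lowest array, and it was not called after median centring. Its call was also lost without control unpaired A (-1.35) or B (-0.88), and without either epileptogenic paired array. With arrays left out in that order 4, 3, 4 and 7 antigen presentation genes and 0, 0, 1 and 0 cytokine genes rose, and without the letter 2 and 0.

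Many lysosomal genes, the digestive machinery of phagocytes and glia, rose. Of 30 members 18 rose (60%) and 0 fell, at a median of 1.32. Grn, which encodes the lysosomal and secreted protein progranulin, had signals of 215 and 257 on the control and 1301 and 1580.5 on the epileptogenic arrays, a difference of 2.61 ± 0.25 (limma adjusted p = 0.00136). The cathepsin genes Ctsz (2.53 ± 0.33) and Ctsd (2.28 ± 0.21) rose, and all of Grn, Ctsz and Ctsd passed with any single array left out. Ctsd had 501 and 303 and 1834 and 1944. Further proteases and hydrolases that rose were Ctsc (2.07), Tpp1 (1.70), Lgmn (1.68), Ctss (1.51), Ctsb (1.35) and Hexa (1.15). Lamp2 (0.36), Psap (0.72) and the calcium channel gene Mcoln1 (-0.20) did not pass. Of the 14 genes that store and export lipids 9 rose (64.3%), at a median of 1.38. Soat1, which esterifies cholesterol for storage, rose by 2.28 ± 0.23, from 44.3 and 117 to 241 and 504. Npc2, which carries cholesterol out of lysosomes, rose by 1.71 ± 0.16 (limma adjusted p = 0.00137), and Abca1, which loads it onto lipoproteins, by 1.75 ± 0.23. The droplet gene Plin2 (1.61), Pltp (1.57), Fabp7 (1.30), Apoe (0.88) and Fabp5 (0.87) rose too. The lipid list shares 3 and the lysosomal list 5 of its tested members with other lists, among them Npc2 in both. In the leave-out order 11, 8, 20 and 13 lysosomal and 6, 2, 7 and 7 lipid genes rose, and without the letter 7 and 1. In the interferon, microglial, complement, antigen presentation and lysosomal lists 0 members fell at an unadjusted p under 0.05 as well, and 2 lipid genes (Lpl and Vldlr) did.

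Some genes of reactive astrocytes rose. Gfap, the intermediate filament by which astrocytic reaction is usually recognised, had signals of 893 and 583 on the control and 4543 and 3844 on the epileptogenic arrays. Its difference was 2.53 ± 0.36 (limma adjusted p = 0.00509), and it lost the call when control unpaired B was left out (2.01). Of 20 members 10 rose (50%) and 0 fell, with a median of 1.35, but 0.95 between the A arrays and 1.80 between the B arrays. The filament gene Vim rose by 1.95 and Anxa3, a membrane-binding annexin gene, by 2.39 ± 0.26, from 310.5 and 267 to 1276 and 1797. Hspb1, a small heat shock protein gene, rose by 3.46 ± 0.62 from dim control signals of 6.55 and 29.4 to 113 and 207. Stat3, which drives many of these genes, rose by 0.98. S100b (0.21) and Nes (0.62) did not pass. Of 22 genes of resting astrocytes 4 rose (18.2%), at a median of 0.29. They were Clu (1.49 ± 0.17), Mlc1 (1.48 ± 0.18), Apoe (0.88 ± 0.19) and the water channel gene Aqp4 (0.77 ± 0.15). Mlc1, a membrane protein of astrocytic end-feet, had 1783 and 1576 and 4875 and 4516. The glutamate transporter gene Slc1a3 had 4476 and 2696 on the control and 3621 and 3071 on the epileptogenic arrays, so that the groups overlapped. With arrays left out in that order 5, 2, 4 and 4 reactive and 2, 2, 2 and 3 resting astrocyte genes rose, and without the letter 2 and 1.

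Genes of the extracellular matrix and its remodelling had a median difference of 0.90, and 8 of 33 rose (24.2%). The metalloproteinase inhibitor genes Timp1 (1.67 ± 0.35) and Timp2 (1.60 ± 0.19), the matrix protein gene Tnc (1.67 ± 0.30) and the plasminogen activator gene Plat (1.50) were among them. Timp2 had signals of 736 and 610.3 on the control and 2195 and 1874 on the epileptogenic arrays and passed with any single array left out. Bcan (0.90), which encodes a proteoglycan of perineuronal nets, rose, while Hapln1 (0.16) and Tnr (0.14) of the same nets did not pass. The summed signal of 4 meningeal markers was 219.6 and 231 on the control and 309.9 and 1099 on the epileptogenic arrays. Epileptogenic B was highest. The lists are not separate sets: 12 of the 33 matrix genes and 9 of the 17 meningeal and fibroblast genes are also in another list. Of 17 meningeal and fibroblast genes 0 passed in limma, at a median of 1.15; 8 were higher at an unadjusted p under 0.05, and 4 rose after median centring. That median was 0.53 without epileptogenic unpaired B and 0.68 without control unpaired A. Mgp had 1.42 ± 0.40 (limma adjusted p = 0.0615) and Bgn 1.39 ± 0.40 (limma adjusted p = 0.0665). Their part in the matrix result was not tested. Of 23 oligodendrocyte genes 4 rose (17.4%): Aspa (1.85 ± 0.26), the progenitor gene Cspg4 (1.43 ± 0.32), Tspan2 (1.11 ± 0.23) and Bcas1 (0.75 ± 0.19). The list median was 0.47 (0.22 without control unpaired A and 0.71 without control unpaired B). The main myelin gene Mbp had 3177 and 2908 on the control and 4634 and 3619.5 on the epileptogenic arrays, and its difference of 0.43 did not pass. Of 24 endothelial and mural genes 1 rose, Cspg4 (4.17%, against 4.5% of all named genes). The list median was 0.18 (0.12 without control unpaired A and 0.03 without epileptogenic unpaired B). In the leave-out order 3, 1, 8 and 1 matrix and 1, 0, 3 and 1 oligodendrocyte genes rose, and without the letter 1 and 0.

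**Figure D3:**
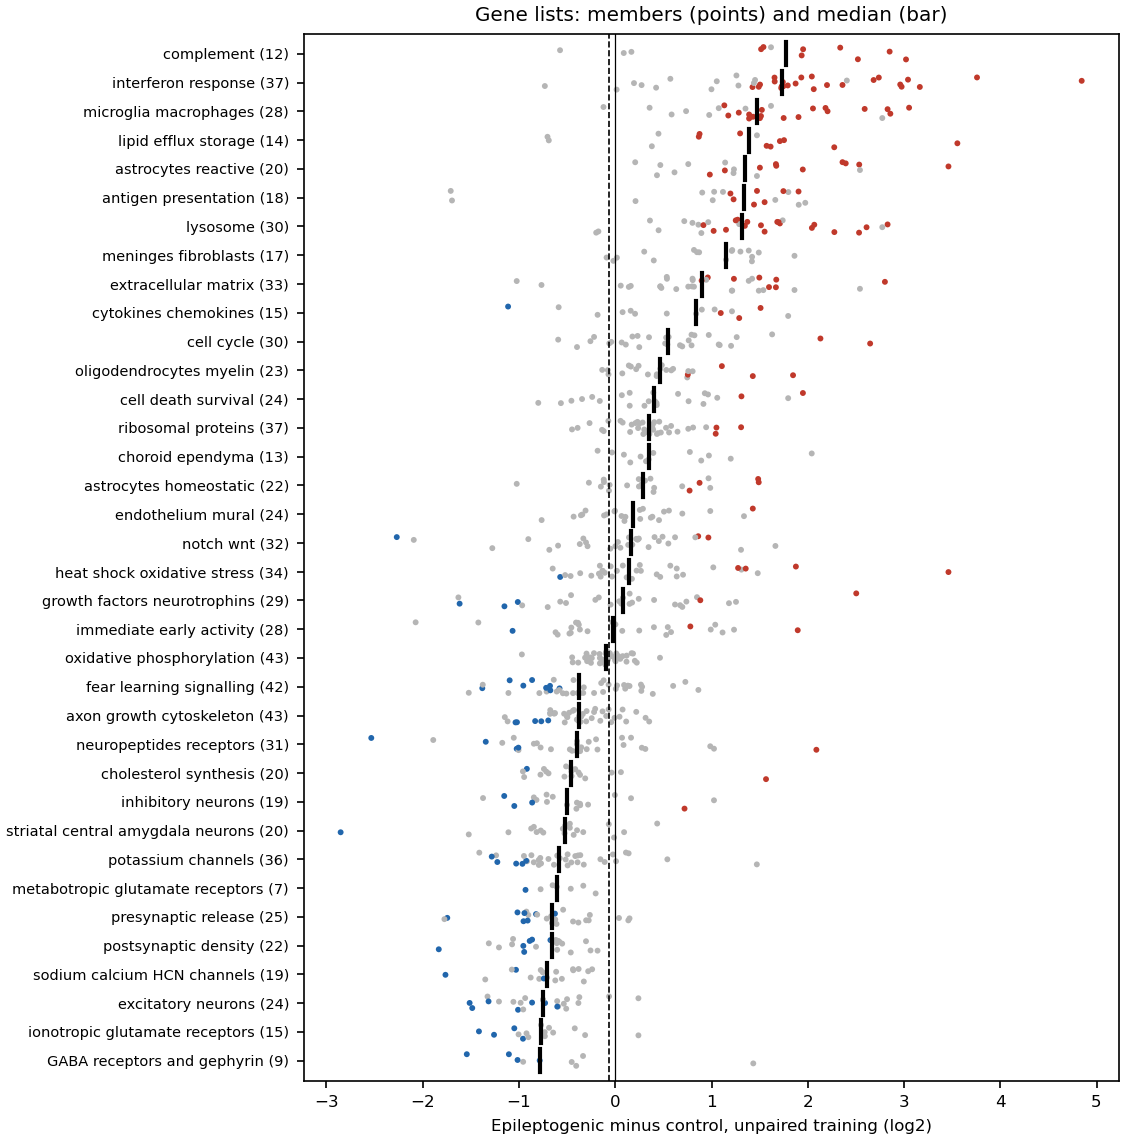
Log2 difference, epileptogenic minus control after unpaired training (x axis), of each tested member of 36 gene lists (points; red rose, blue fell, grey not past the threshold), with the list median as a black bar and the number of tested members in brackets. The dashed line is the median of all named genes, -0.07; glial and immune lists lie to its right and lists of neurons, receptors, channels and synapses to its left.

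The largest decreases included genes of neuronal signalling and of dendrites. Trhr, the receptor of thyrotropin-releasing hormone, had signals of 389 and 707 on the control and 66.1 and 124 on the epileptogenic arrays. Its difference was -2.53 ± 0.25 (limma adjusted p = 0.00137), and it passed with any single array left out. Both epileptogenic arrays lay far under both control arrays. Nrarp, a feedback inhibitor of Notch signalling, had 142 and 208 and 38.0 and 33.3, a difference of -2.27 ± 0.29. Bhlhe22, a transcription factor gene of excitatory neurons, had 2115 and 3544 and 546 and 1262, a difference of -1.72 ± 0.18 (limma adjusted p = 0.00198). It also passed with any single array left out. Without the letter in the fit neither Trhr nor Bhlhe22 passed (limma adjusted p = 0.142 and 0.245). Ddn, which encodes dendrin, a protein of dendrites whose mRNA is carried there, had 1005 and 2075 and 400.1 and 410.2, a difference of -1.83 ± 0.25. The epileptogenic arrays of Ddn were alike, and the control arrays differed from each other but both lay above them. Hecw1, a ubiquitin ligase gene, fell, with -1.87 ± 0.28, as did Palmd (-1.86 ± 0.33), Tsga10 (-1.96 ± 0.38), Fgf14, an intracellular regulator of sodium channels (-1.75 ± 0.32), and Chodl (-1.88 ± 0.47). Vwa3a had 484 and 91.8 and 51.2 and 56.2; its difference of -1.97 ± 0.50 rests on control unpaired A, without which it was -1.22 and not called. Without epileptogenic unpaired A it was -1.04 and not called. The Vwa3a call was also lost without control unpaired B (-2.72) and without either epileptogenic paired array. Among genes whose epileptogenic mean was dim, Myo16 (-3.15 ± 0.63), Adat3 (-2.86 ± 0.55), Zic2 (-2.85 ± 0.52) and Klc3 (-2.63 ± 0.59) fell the most.

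Some genes that mark the excitatory principal neurons fell. Of 24 members 7 fell (29.2%, against 3.13% of all named genes) and 0 rose, and 3 fell after median centring. The median was -0.75, and 1 of the 24 was above 0. Neurod6, a transcription factor gene of forebrain excitatory neurons, had signals of 306 and 463 on the control and 86.0 and 203 on the epileptogenic arrays, a difference of -1.51 ± 0.30 (limma adjusted p = 0.0186). Lmo3, a transcriptional cofactor gene that is strong in the basolateral amygdala, had 1092 and 1459 and 525 and 489, a difference of -1.32 ± 0.21. Both genes were lower on each epileptogenic array than on each control array. Neurod1 fell, with -1.49 ± 0.27, as did Nptxr, a receptor for neuronal pentraxins, with -1.01 ± 0.23, although its arrays overlapped (117 and 274 and 66.9 and 118). Mef2c (-0.60) and Etv1 (-0.73) also fell. The vesicular glutamate transporter gene Slc17a7, the usual marker of these cells, was dim on this array: its signals were 44.6 and 49.2 on the control and 17.4 and 20.1 on the epileptogenic arrays, close to the filter level of 20.3. Its difference of -1.33 ± 0.56 did not pass (limma adjusted p = 0.182). The summed signal of 7 principal neuron markers was 1866 and 2311 on the control and 911 and 899 on the epileptogenic arrays. With arrays left out in that order 0, 0, 5 and 1 members fell, and 0 fell without the letter.

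Genes of GABAergic interneurons were mixed. Of 19 members 3 fell (15.8%, against 3.13% of all named genes) and 1 rose (5.26%, against 4.5%), at a median of -0.50. The genes for the calcium-binding proteins of interneuron classes, Calb2 (calretinin) and Calb1 (calbindin), fell, with -1.15 ± 0.27 and -1.05 ± 0.17. Calb1 had signals of 1179 and 1586 on the control and 546 and 799 on the epileptogenic arrays, without overlap. Nxph1 fell, with -0.86 ± 0.21, and Maf, a transcription factor gene that microglia also express, rose by 0.72 ± 0.18, a call that was lost with any single array of the study left out (limma adjusted p = 0.0583 to 0.319). Gad1, the main GABA-synthesising enzyme, had 4690.1 and 2967 and 3499 and 1487. Its groups overlapped through epileptogenic A, and the difference of -0.71 ± 0.21 did not pass (limma adjusted p = 0.0687). The summed signal of Gad1, Gad2 and Slc32a1 was 5154 and 3406 on the control and 4201 and 1659.5 on the epileptogenic arrays. Npy, a peptide of interneurons, had 413 and 237 and 426 and 131, and its difference of -0.40 ± 0.32 did not pass. In the leave-out order 0, 0, 3 and 0 members fell, and 0 fell without the letter; after median centring 1 fell and 1 rose.

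Some receptor genes of both main transmitters fell. Of 9 tested genes of GABA receptors and their anchor gephyrin, 4 fell (44.4%, against 3.13% of all named genes), and 2 after median centring. Gabra5, the subunit of extrasynaptic receptors that carry tonic inhibition, had signals of 258 and 306 on the control and 91.3 and 102 on the epileptogenic arrays, a difference of -1.54 ± 0.23 (limma adjusted p = 0.00584). Gabrb2, a subunit of the most common receptor type, had 1139 and 1029 and 549.9 and 461, a difference of -1.11 ± 0.18. The arrays of each of these genes lay close together within a group. Gabbr2, a subunit of the metabotropic GABA-B receptor, fell, with -1.01 ± 0.20. Gabra2 fell, with -0.79 ± 0.19, but its arrays overlapped (2111 and 2985 and 994 and 2135), and it was -0.46 and not called without epileptogenic unpaired A. Its call was also lost without control unpaired A (-0.71) or B (-0.86), and without either epileptogenic paired array. Gphn (-0.33) and Gabrb1 (-0.41) did not pass. Of 15 genes of ionotropic glutamate receptors and their partners 4 fell (26.7%), 3 of them after centring. Among them were 3 genes of AMPA receptor subunits, which carry fast excitation: Gria3 (-1.42 ± 0.18), Gria2 (-1.05 ± 0.20) and Gria1 (-0.96 ± 0.23). Gria3 had 1047 and 1693 and 439.5 and 566. Gria2, the subunit that keeps AMPA receptors from passing calcium, had 4449 and 3486 and 1575 and 2301, without overlap. Grik2, a kainate receptor subunit gene, fell, with -1.26 ± 0.19. The NMDA receptor genes Grin1 (-0.90), Grin2a (-0.92) and Grin2b (-0.73) did not pass. Of 7 metabotropic glutamate receptor and Homer genes Grm5 fell (14.3% of the list), with -0.93 ± 0.23, and 0 after centring. With arrays left out in that order 1, 0, 3 and 2 GABA receptor and 1, 1, 2 and 3 ionotropic glutamate receptor genes fell, and none without the letter.

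Some ion channel genes fell. Of 36 potassium channel genes 5 fell (13.9%), 3 of them after median centring, at a median of -0.59 (-0.37 without epileptogenic unpaired B). Kcnd2 and the gene of its partner, Kcnip4, belong to the A-type current, which limits the spread of spikes into dendrites. Kcnd2 had signals of 2059 and 953 on the control and 668 and 538 on the epileptogenic arrays, a difference of -1.23 ± 0.20 (limma adjusted p = 0.00888). Kcnip4 had 1514 and 899 and 503 and 457, a difference of -1.28 ± 0.20. In both genes the control arrays were far apart, with A the higher, and both epileptogenic arrays were lower still. Kcnc2, a channel gene of fast-firing neurons (-1.03 ± 0.18), Kcnv1 (-0.96 ± 0.25) and Kcnq5 (-0.93) fell as well. Kcnq3, of the M-current that damps repetitive firing, had -1.41 with a dim epileptogenic mean and did not pass. Of 19 sodium, calcium and HCN channel genes 3 fell (15.8%), 2 of them after centring, at a median of -0.71. Cacna2d1, the calcium channel subunit that gabapentin binds, had 286 and 766 and 101 and 188, a difference of -1.76 ± 0.23 (limma adjusted p = 0.00365). Scn2a, a sodium channel gene of excitatory neurons, had 1158 and 1165 and 537 and 601, a difference of -1.03 ± 0.16, and the leak channel gene Nalcn fell, with -0.74 ± 0.16. Scn1a (-1.35) and Hcn2 (-1.07) did not pass. In the leave-out order 0, 2, 5 and 2 potassium and 1, 0, 3 and 3 sodium, calcium and HCN channel genes fell, and none without the letter.

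Some genes of both sides of the synapse fell. Of 25 genes of transmitter release 7 fell (28%), 2 of them after median centring, at a median of -0.66. Bsn, which encodes bassoon, a scaffold of the active zone, had signals of 937 and 1081 on the control and 258 and 349 on the epileptogenic arrays, a difference of -1.75 ± 0.23 (limma adjusted p = 0.00386). Rab3a, a vesicle GTPase gene, fell, with -1.02 ± 0.18, as did the fusion regulator gene Cplx2 (-0.95 ± 0.23), Rimbp2 (-0.94 ± 0.19), Dnm1 (-0.91), Syn2 (-0.82) and Snap25 (-0.63). Cplx2 was -0.58 without epileptogenic unpaired B. Syp (-0.44) and Syn1 (-0.62) did not pass. Of 22 genes of the postsynaptic density 6 fell (27.3%), 1 of them after centring, at a median of -0.66 (-1.11 without epileptogenic unpaired A), and 0 of the 22 were above 0. They were Ddn, described above, Dlgap1 (-0.95 ± 0.17), Cnksr2 (-0.95 ± 0.22), Anks1b (-0.89 ± 0.20), Camk2a (-0.86 ± 0.22) and Nlgn1 (-0.67). The Camk2a call was lost with any single array of the study left out. Dlgap1, a scaffold gene that links receptors to Shank proteins, had 1029 and 1593 and 597 and 731, without overlap. Anks1b was -0.57 and not called without epileptogenic unpaired B. Its call was also lost without control unpaired A (-0.90) or B (-0.88). Dlg4 (-0.18) and Homer1 (-0.46) did not pass. Of 43 genes of axon growth and the cytoskeleton 6 fell (14.0%, against 3.13% of all named genes), 1 of them after median centring, at a median of -0.38 (-0.19 after centring). They included the neurofilament gene Nefl (-1.04 ± 0.18), the guidance genes Efnb3 (-1.02 ± 0.21) and Slit2 (-0.83 ± 0.20) and the growth cone gene Gap43 (-0.77 ± 0.18). With arrays left out in that order 1, 0, 7 and 1 release, 1, 0, 8 and 1 postsynaptic and 0, 0, 3 and 0 axon growth genes fell, and without the letter 1, 0 and 0. In the lists of excitatory neurons, GABA receptors, ionotropic glutamate receptors, transmitter release and the postsynaptic density 0 members were higher at an unadjusted p under 0.05.

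**Figure D4:**
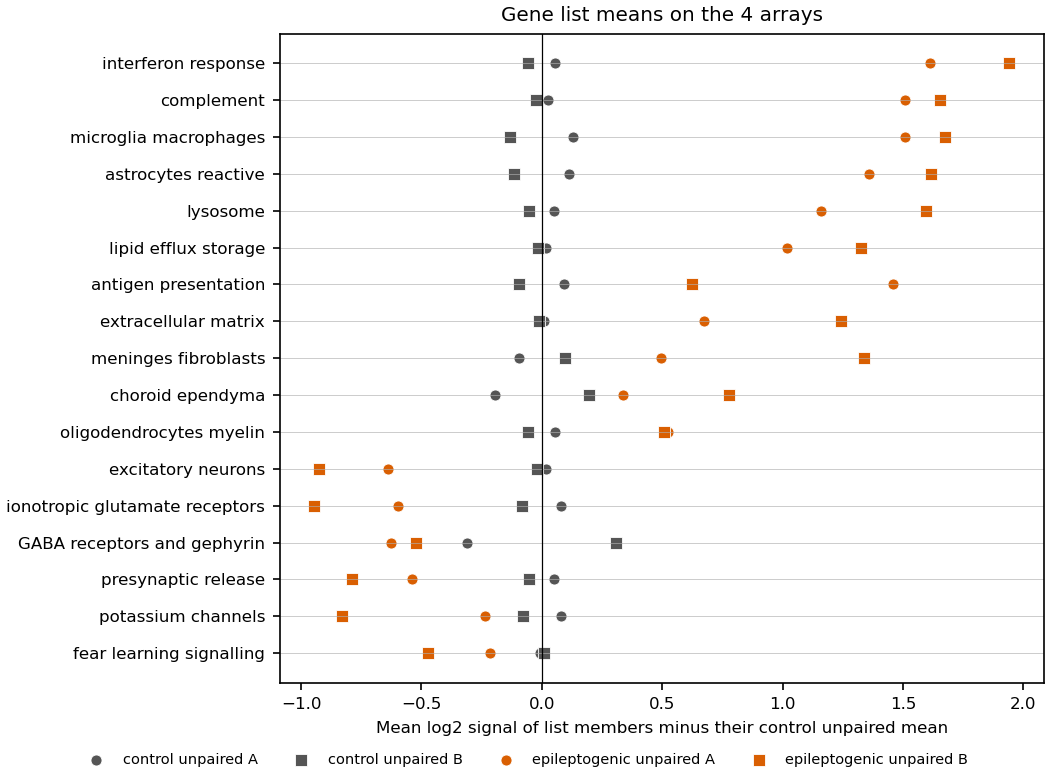
Mean log2 signal of the tested members of 17 gene lists on each of the 4 arrays, relative to the mean of the 2 control arrays (x axis); grey is control, orange epileptogenic, circles letter A and squares letter B. In the upper 11 lists both epileptogenic arrays lie to the right of both control arrays, and in the lower 6 both lie to the left.

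Genes of neuronal activity were called at shares near those of all named genes 3 h after the tone and shock, which both groups received. Of 28 immediate early and activity genes 2 rose (7.14%, against 4.5%) and 1 fell (3.57%, against 3.13%). The list median was -0.02, and -0.10 to 0.05 with single arrays left out. Fos, a transcription factor gene that neurons switch on within minutes of strong activity, had signals of 115 and 152 on the control and 703 and 346 on the epileptogenic arrays, a difference of 1.90 ± 0.35 (limma adjusted p = 0.0141). Epileptogenic A was the highest array, and without it the difference was 1.15. Jun, the partner of Fos, rose by 0.78 ± 0.19. Nr4a3, a nuclear receptor gene of the same class of response, fell, with -1.07 ± 0.19, from 511 and 915 to 289 and 369. Arc, which acts at synapses after activity, had 63.0 and 22.2 and 38.6 and 19.3, a difference of -0.46 ± 0.54 that did not pass (limma adjusted p = 0.653). Egr1 (-0.39), Fosb (-0.60) and Junb (0.00) did not pass either. Of 42 genes of fear learning signalling 8 fell (19.0%) and 0 rose, at a median of -0.38 (-0.24 without epileptogenic unpaired B), and 3 fell after median centring. They encode mainly kinases and phosphatases: Prkce (-1.38 ± 0.19), Prkar2b (-1.10 ± 0.18), Camk2a (-0.86 ± 0.22), Map2k1 (-0.72), Ppp3r1 (-0.68), Prkcb (-0.67) and Ppp3cb (-0.58). The last of the 8, Htr2c, a serotonin receptor gene, had 1189 and 1595 and 627 and 806, a difference of -0.96 ± 0.15. Creb1 had 0.15 and Nr3c1, the glucocorticoid receptor gene, -0.13, and neither passed. In the leave-out order 0, 0, 2 and 1 activity genes rose and 0, 1, 6 and 3 fear learning genes fell, and none without the letter.

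Among growth factors and their receptors 2 of 29 rose (6.90%, against 4.5% of all named genes) and 3 fell (10.3%, against 3.13%). Igf1, which microglia release after injury, had signals of 43.4 and 61.6 on the control and 183 and 470.2 on the epileptogenic arrays, a difference of 2.50 ± 0.33 (limma adjusted p = 0.00365) that passed with any single array left out. Tgfb2 rose by 0.88 ± 0.21, with overlapping arrays. Ccn3 (-1.62 ± 0.26), Fgf13, an intracellular relative of Fgf14 (-1.15 ± 0.15), and the vascular factor gene Vegfa (-1.01 ± 0.22) fell. Bdnf, the neurotrophin of synaptic plasticity, had 43.0 and 109 and 69.5 and 73.8, so that both epileptogenic arrays lay between the control arrays, and its difference was 0.06 ± 0.34. Among 31 neuropeptide and receptor genes 1 rose (3.23%, against 4.5%) and 4 fell (12.9%, against 3.13%). Beside Trhr, the fallen genes were the neuropeptide Y receptor genes Npy5r (-1.35 ± 0.32) and Npy1r (-1.02 ± 0.21) and the prohormone chaperone gene Scg5 (-1.01 ± 0.15). Npy1r had 216 and 294 and 97.6 and 157. Ntsr1, a neurotensin receptor gene, rose by 2.09 ± 0.46 from dim control signals. In the leave-out fits, taken in that order, 1, 1, 4 and 2 neuropeptide genes and 1, 0, 3 and 2 growth factor genes fell, and none did without the letter.

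Few metabolic and stress genes passed. Of 43 oxidative phosphorylation genes 0 passed, at a median of -0.09 (-0.23 to 0.04 with single arrays left out), near that of all named genes; the smallest p values were those of Ndufa6 (-0.97 ± 0.28; limma adjusted p = 0.0674) and Ndufb5 (-0.38 ± 0.16). At an unadjusted p under 0.05 there were 1 higher and 2 lower members, and 0 passed in the fit without the letter or with an array left out. Of 20 genes of cholesterol synthesis 1 rose and 1 fell (5% each, against 4.5% and 3.13% of all named genes), at a median of -0.46. Msmo1, a demethylation enzyme gene, fell, with -0.92 ± 0.23, and lost the call with median centring, with quantile normalization and with any 1 of the 4 arrays left out. Srebf1, a regulator of lipid synthesis, rose by 1.57 ± 0.27, though a further probe set had the opposite sign. Of 34 heat shock and oxidative stress genes 4 rose (11.8%, against 4.5% of all named genes) and 1 fell (2.94%, against 3.13%). Hmox1, which breaks down haem, had 39.6 and 31.1 and 109.8 and 151, a difference of 1.88 ± 0.35 (limma adjusted p = 0.0145). Nfe2l2, the transcription factor NRF2 of the antioxidant response, rose by 1.36 ± 0.20 and Gpx1, a glutathione peroxidase gene, by 1.28 ± 0.24. The chaperone gene Hsph1 fell, with -0.57 ± 0.14, with overlapping arrays and no call after median centring or with any single array of the study left out. Of 24 cell death genes Pycard, the inflammasome adaptor, rose by 1.95 ± 0.35 and the inflammatory caspase gene Casp4 by 1.31 ± 0.33 (8.33%, against 4.5%), at a median of 0.40 (0.20 without control unpaired B). In the leave-out order 1, 1, 3 and 1 stress genes and 1, 0, 1 and 0 cell death genes rose, and none without the letter.

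Markers of tissue next to the dissected nuclei varied between arrays. The choroid plexus gene Ttr had signals of 151 and 5067 on the control and 2649 and 4883 on the epileptogenic arrays, so that control A was low and the other 3 were high. Its difference of 2.04 ± 0.86 did not pass, and the summed choroid plexus markers were 169 on control A and between 2696 and 5127 on the other arrays. The summed markers of striatal and central amygdala neurons were 882 and 945 on the control and 1070.1 and 624 on the epileptogenic arrays, without separation. Of 20 genes of those neurons 1 fell, Zic2 (5%, against 3.13% of all named genes). The list median of -0.52 was -0.20 without epileptogenic unpaired B and -0.94 without epileptogenic unpaired A. Haemoglobin (Hbb) had 83.3 and 138 and 117 and 18.3, lowest on epileptogenic B, and the other 4 blood markers lay under the filter level on average. The part of these tissues in the results was not tested.

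The same contrast after paired training shares no array with this one and gave 642 higher (3.45%) and 218 lower calls (1.17%), 4.62% in all. Both contrasts take their spread from the same fit. Of the 633 probe sets that rose after unpaired training 420 also rose after paired training, which is 66.4% of the 633 and 65.4% of the 642, and 624 were above 0 there, against 44.7% of all tested probe sets. Of the 673 that fell 94 also fell after paired training, 14.0% of the 673 and 43.1% of the 218, and 617 were below 0 there, against 55.3% of all. Across tested probe sets the differences of both trainings correlated at 0.559; these are probe sets on the same arrays and not independent replicates. The test of the difference between the trainings passed for 0 probe sets (0.0%) in limma, with a smallest adjusted p of 0.0978 and 1056 of 18625 at an unadjusted p under 0.05. An offset of 16 before the logarithm gave 1 call, and so did leaving out control paired B. No gene named here is therefore shown to respond differently after unpaired and paired training.

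Values side by side show where the 2 contrasts were close and where they were not. Gfap differed by 2.53 ± 0.36 after unpaired and by 3.12 ± 0.36 after paired training, Laptm5 by 2.83 ± 0.21 and 2.50 ± 0.21, and Grn by 2.61 ± 0.25 and 2.51 ± 0.25. Isg15 differed by 3.04 ± 0.50 and 1.32 ± 0.50, Oas1a by 3.16 ± 0.57 and 0.72 ± 0.57, and Ntsr1 by 2.09 ± 0.46 and 0.06 ± 0.46. Bsn differed by -1.75 ± 0.23 and -0.41 ± 0.23, Kcnc2 by -1.03 ± 0.18 and -0.18 ± 0.18, and Gria2 by -1.05 ± 0.20 and -0.37 ± 0.20. Isg15, Oas1a, Ntsr1, Bsn, Kcnc2 and Gria2 were named for their calls after unpaired training, and such a choice favours larger values there. Excitatory neuron genes had medians of -0.75 after unpaired and -0.50 after paired training, with 7 and 1 that fell. Fear learning genes had -0.38 and -0.10, with 8 and 1 that fell, and microglial genes 1.47 and 1.96, with 19 and 23 that rose. The smallest p values for a difference between the trainings in named genes were those of Nid1 (0.23 ± 0.18 and 2.23 ± 0.18), Smarca2 (-1.10 ± 0.17 and 0.77 ± 0.17), Fbxo2 (1.71 ± 0.22 and 0.17 ± 0.22) and Rab26 (0.25 ± 0.24 and -1.31 ± 0.24), and none passed after adjustment. Fbxo2, a ubiquitin ligase subunit gene of neurons, had signals of 104 and 140.3 on the control unpaired and 385 and 403 on the epileptogenic unpaired arrays.

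**Figure D5:**
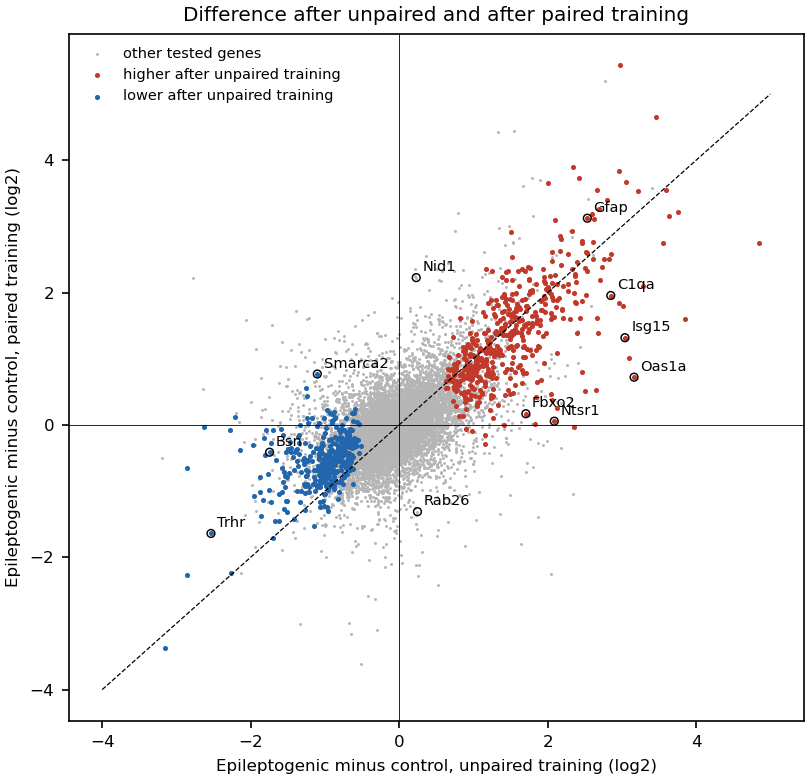
Log2 difference, epileptogenic minus control, of each named gene after unpaired (x axis) and after paired training (y axis); red rose and blue fell after unpaired training, and the dashed line marks equal differences. Most red points lie above 0 on both axes, the blue points lie nearer 0 on the y axis, and the circled genes are named in the text. Colours follow the call on the x axis, and such a choice favours larger values on that axis.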

How the data were processed

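RNA of the basolateral amygdala was measured on 8 Affymetrix Rat Genome 230 2.0 arrays, 2 for each of 4 groups. The deposited values are signal intensities on a linear scale that the authors made with MAS5, per the submitters' processing notes (its version and scaling target are not given in the sources used here). No counts underlie the values, and the number of arrays limits their precision.

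Signals entered as log2 values and were not normalized again. After removal of 57 control probe sets 31042 remained, and the 18625 whose mean log2 signal over the 8 arrays lay above the 40th percentile (4.35, a signal of 20.3) were tested. A platform annotation gave 1 gene symbol for 20826 probe sets, several for 436 and none for 9780, and a gene was read by its tested probe set with the highest mean. The fit was made in limma 3.58.1 (R 4.3.3) with 4 group means and the letter as terms, a prior variance that follows the mean signal (the intensity trend), two-sided tests, 3 residual degrees of freedom, and Benjamini-Hochberg adjustment over all tested probe sets. It was tested on simulated data. Since 2 arrays per group cannot give a spread, it is shared by the 4 groups. The SE and p-values measure only the spread between pools that is left after the letter is taken out. Without the letter the SE of Trhr was 0.62 in place of 0.25, and that of Bhlhe22 was 0.56 in place of 0.18.

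The letter was checked as a pairing of samples: deviations of like-lettered arrays from their group means correlated at 0.321 to 0.407 in all 6 pairs of groups, 0.403 between the groups compared here. The letters come from the labels, which do not say that like letters belong together, and the correlations do not show what the letters stand for. Median signals were also higher on A than on B in every group: 43.2 and 33.8 in control unpaired and 39.6 and 29.0 in control paired. They were 35.0 and 32.2 in epileptogenic unpaired and 36.6 and 30.5 in epileptogenic paired. The part of this in the correlations was not tested. No array was identical to another.

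The gene lists (37, with 1281 entries, of which 1114 have a probe set and 897 were tested) and the members of the comparison were chosen with earlier results of these data known. Genes were named by rule: the 12 largest changes in each direction among called genes without overlap of arrays and with the lower group above the filter level, the 4 largest with a dim lower group, up to 4 called genes per list and direction (or the 2 smallest p where none passed), the smallest p for the difference between trainings, and always Gad1, Slc17a7, Npy, Bdnf, Arc, Fos, Cd74 and Gfap. Other genes were added from the lists after their values were seen. Alternatives were no letter, 4 arrays alone, quantile normalization, median centring, an offset of 16, no filter or the 60th percentile, no intensity trend, array weights, averaging all probe sets per gene, and each array left out. Promoter sequences are RefSeq's (GRCr8). Python 3.11.15 with matplotlib 3.10.9 drew the figures.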

Additional observations from a re-analysis of the deposited data

Results flagged for a closer look

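Smarca2, an ATPase gene of chromatin remodelling complexes, passed the threshold in opposite directions in both trainings, and it was the single tested probe set of a named gene that did. Its log2 difference, epileptogenic minus control, was -1.10 ± 0.17 after unpaired training, where signals were 5082 and 3681 on the control and 2343 and 1732 on the epileptogenic arrays, and 0.77 ± 0.17 after paired training. The difference between the trainings was -1.87 on the log2 scale. It had a limma unadjusted p = 1.94e-05, on 2 arrays per group, and did not pass after adjustment over all probe sets (limma adjusted p = 0.120). After unpaired training Smarca2 lost the call when control unpaired A (-0.98), control unpaired B (-1.23) or epileptogenic unpaired B was left out, each with the same direction.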

How the results depend on the processing

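With the replicate letter as a block 633 probe sets rose and 673 fell after unpaired training; without this block it was 54 and 5, and after paired training 97 and 2. Without the intensity trend 0 passed in either direction after unpaired or paired training (limma; 3916 at an unadjusted p under 0.05 after unpaired training, 637 at an adjusted p under 0.1, smallest 0.0652). The number that fell after unpaired training was 401 with quantile normalization, 225 with median centring and 432 without a filter; after paired training it was 138 with centring and 334 with the filter at the 60th percentile. With single arrays left out, 175 to 637 rose and 28 to 616 fell after unpaired training, and 98 to 658 rose and 3 to 294 fell after paired training. The difference between the trainings passed for 1 probe set with an offset of 16 and for 0 to 1 with single arrays left out. The other alternatives kept these counts within 1.5 times. The cause of these shifts was not tested. Fits with an array left out also have fewer degrees of freedom, and the part of this was not tested either. Of 131 named genes past the threshold, 0 reversed under any alternative. Of these, 110 lost the call without the block, 131 without the intensity trend, 25 with median centring, 14 with quantile normalization, 22 with 4 arrays alone and 0 with the offset or array weights. Leaving out control unpaired A or B lost 89 or 95, epileptogenic unpaired A or B 48 or 71, epileptogenic paired A or B 23 or 22, and control paired A or B 5 or 7. Rpl7a was 0.62 in place of 1.04 without control unpaired A. Dim signals also limit sizes: 25 of the 466 genes that rose and 10 of the 324 that fell had a lower group at or under the filter level.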

Other observations

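Some groups of genes lie outside the lists of glia, immunity and neurons. Of 37 tested ribosomal protein genes 3 rose (8.11%, against 4.5% of all named genes) and 34 did not pass; 31 had a difference above 0, against 44.3% of all named genes, at a median of 0.36. Rplp0 rose by 1.31 ± 0.22 (limma adjusted p = 0.0105), Rpl12 by 1.05 ± 0.20 and Rpl7a by 1.04 ± 0.22. Rplp0 had signals of 326 and 293 on the control and 714 and 819 on the epileptogenic arrays, without overlap. Probe sets of ribosomal proteins can take up signal of their processed copies. With arrays left out in the order used in the report, 0, 1, 2 and 1 rose, and 9 rose with quantile normalization.

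In Notch and Wnt signalling 2 of 32 rose (6.25%, against 4.5% of all named genes) and 1 fell (3.125%, against 3.13%), near those shares. Notch1, the receptor, rose by 0.86 ± 0.21 while its other probe set had the opposite sign. Its call was lost with any array of this comparison left out (0.78 to 0.95). Tcf7l2, a Wnt transcription factor gene of oligodendrocyte lineage and other cells, rose by 0.97 ± 0.19, from 406 and 511 to 769 and 1031. It lost the call without control unpaired A (0.91) or B (1.02) or epileptogenic unpaired B (0.85). Without the letter 0 members of the list rose and 1 fell. Nrarp, a target and inhibitor of Notch signalling, fell, with -2.27 ± 0.29, and its difference after paired training was -2.24 ± 0.29. Of 30 cell cycle genes Ect2 (2.65 ± 0.49) and Aurka (2.13 ± 0.47), both needed for mitosis, rose from control signals under the filter level, and the list median was 0.55. These 2 are 6.67% of the list, against 4.5% of all named genes; with arrays left out in the same order 0, 0, 1 and 0 rose, and 0 without the letter.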
